A study of Zea mays with 9 samples.

Results

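The miR160 module of the maize shoot apex is described here through the 6 miR160 precursor genes of the count table (zma-MIR160a, zma-MIR160b, zma-MIR160c, zma-MIR160d, zma-MIR160f and zma-MIR160g, below *MIR160a* and so on) and *AC207656.3_FG002*, an auxin response factor (ARF) gene annotated as ARF16-like that is a listed target of miR160. The members were found by name: every row of the table that begins with zma-MIR160, and this target. They are 7 of 45498 rows, and 6 of its 141 miRNA precursors. RNA was measured in 8 RNA-seq libraries, 2 per group: *dcl1-2* P3, wild-type (WT) P3, *dcl1-2* CZ and WT CZ. P3 is the third leaf primordium from the meristem, and the CZ is the central zone of the shoot apical meristem, which contains the stem cells. All plants were 14-d-old seedlings of strain B73, grown in 16 h light at 25°C and 8 h dark at 21°C by the labels. The *dcl1-2* plants carry a hypomorphic allele of *DICER-LIKE1* (*DCL1*), introgressed into B73 over 4 generations, and the WT plants are their siblings. Tissue was taken by laser microdissection from at least 6 apices per replicate, so that each library pools plants, and the RNA was linearly amplified. The CZ libraries were read single-end and the P3 libraries paired-end. Mature miRNA counts come from 1 small RNA library of whole WT apices, and no small RNA library of *dcl1-2* was used here.

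miRNA genes are transcribed into long precursors that fold into a hairpin. In plants DCL1 cuts the hairpin to release the mature miRNA of about the length printed below, and ARGONAUTE proteins then use it to find and cleave target transcripts. miR160 is conserved across land plants and targets the repressor-type ARF genes that in *Arabidopsis thaliana* are *ARF10*, *ARF16* and *ARF17*, which dampen the response to the hormone auxin in leaves, roots and embryos. A precursor whose cutting is slowed can accumulate, and a target whose miRNA is lost can rise; both are background and not results of these data.

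The mature sequences are shown because they set which precursors can be told apart in the small RNA library. The capitals mark the seed, bases 2 to 8 from the 5′ end.
miR160a,b,c,d,g: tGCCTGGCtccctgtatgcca
miR160f: tGCCTGGCtccctgtatgccg
Both share 1 seed and differ only at the last base (A21G, miR160a first, counted from the 5′ end). The sequence of miR160a,b,c,d,g is common to 5 precursors, so its reads cannot be assigned to 1 locus, whereas miR160f comes from *MIR160f* alone.

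The target sites are shown because the targets below differ in how closely they pair with miR160. Each site is written 5′ to 3′, and capitals mark bases that differ from the perfect complement of miR160a,b,c,d,g.
perfect complement: uggcauacagggagccaggca
GRMZM2G081406: AgCcauacagggagccaggca
GRMZM2G153233, GRMZM2G159399 and GRMZM2G390641: Aggcauacagggagccaggca
GRMZM5G808366: uAgcauGcagggagccaggca
Positions are counted from the 5′ end of miR160, with the base of the perfect complement first. The sites of *GRMZM2G153233* (ARF10-like), *GRMZM2G159399* and *GRMZM2G390641* (both ARF16-like) were identical and differed by U21A alone. The site of *GRMZM2G081406* (ARF16-like) carried U21A and G19C. The site of *GRMZM5G808366* (ARF17-like) carried G20A and A15G. All 5 sites pair with the whole seed. No site is printed for *AC207656.3_FG002* or for *GRMZM2G005284* (ARF10-like).

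The count table places *MIR160a* at chr4:236407120-236408097, *MIR160b* at chr5:43020532-43021800, *MIR160c* at chr6:9144320-9146561, *MIR160d* at chr1:283580971-283581872 and *MIR160g* at chr6:91449645-91449930, all on the plus strand. *MIR160f* lies at chr2:236870422-236870890 on the minus strand, and *AC207656.3_FG002* at chr5:49253260-49255662 on the plus strand. The reads were aligned to B73 RefGen_v3, but the table itself names no build. The members are thus spread over 5 chromosomes, and none overlaps another. *MIR160d* contains the gene model *GRMZM2G098377*, 768 bases on the same strand. That model had 625 and 453 counts in *dcl1-2* P3 and 571 and 393 in WT P3, so reads in the overlap were counted for both and cannot be told apart. *MIR160a* has the same coordinates as the model *GRMZM2G169009*, and *MIR160b* overlaps *GRMZM2G306625* on the opposite strand; both of these models had 0 counts.

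The libraries held 8626824 to 10328582 counts in P3 and 24753974 to 30327603 in the CZ. Levels are given in RPM, counts scaled to the same library total. The limit below which a gene at 0 counts may lie, taken as 3 counts per library, was 0.290 to 0.348 RPM in P3 and 0.0989 to 0.121 RPM in the CZ, for counting error only. The tissue labels were checked against marker genes found by symbol. The 9 meristem KNOX genes summed to 82.4 to 101 RPM in the P3 libraries and to 1241 to 1502 RPM in the CZ libraries. Most of the CZ sum was *GRMZM2G017087*, with 970 to 1215 RPM there. *GRMZM2G433591* overlapped between the tissues (24.9 to 29.8 RPM in P3, 23.7 to 36.4 RPM in the CZ). The other KNOX genes were higher in every CZ library than in any P3 library. The 7 leaf YABBY genes summed to 397 to 569 RPM in P3 and to 7.19 to 38.4 RPM in the CZ. *DCL1* (*GRMZM2G040762*) had 141 and 136 RPM in *dcl1-2* P3 against 73.2 and 101 RPM in WT P3, and 84.0 and 91.7 RPM in *dcl1-2* CZ against 65.4 and 62.2 RPM in WT CZ. Its difference passed the edgeR test described below in P3 (log2 fold change 0.74 ± 0.15 (SE), adjusted p = 0.0114) and not in the CZ (0.43 ± 0.14, adjusted p = 0.272). Without 1 or the other *dcl1-2* P3 library the edgeR adjusted p in P3 was 0.0501 or 0.0522. The lesion of *dcl1-2* is not given by the labels, so transcript levels do not check the genotype.

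By rank, mature miR160 was among the more abundant miRNAs of the WT apex, though far below the top sequence. That sequence, of miR166, had 2139473 reads. The sequence of miR160a,b,c,d,g had 1920 reads, 18.64 RPM as the authors scaled it. It ranked 9 among 76 distinct mature sequences. Its share of all 2414776 mature miRNA reads was 0.0795%, with a 95% Wilson interval of 0.0760% to 0.0831%. miR160f had 21 reads (0.2 RPM), rank 34, and made up 1.08% of the 1941 reads of the family (95% Wilson interval, 0.709% to 1.65%). By families, miR160 ranked 7 of 28. The small RNA library has no replicate, and the intervals cover counting error only.

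**Figure D1:**
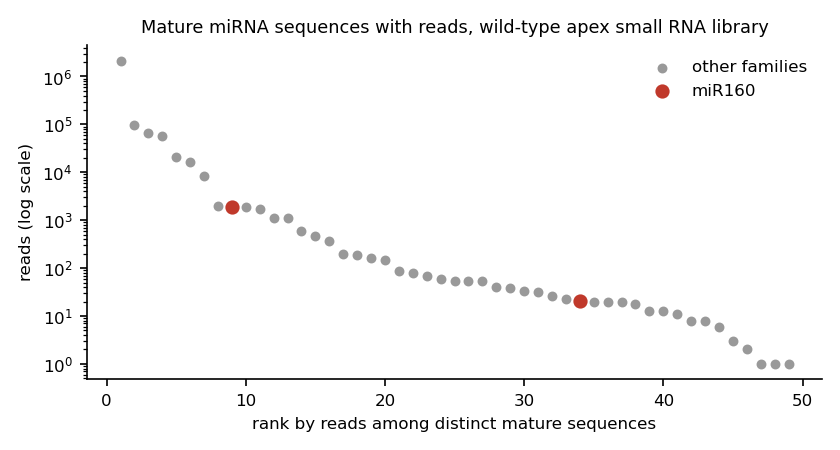
Reads (log scale) of each of the 49 distinct mature miRNA sequences with at least 1 read in the small RNA library of WT apices, against rank. The 2 miR160 sequences, in red, stand at rank 9 with 1920 reads and at rank 34 with 21 reads.

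Of the 6 precursors, 1 provided nearly all of the RNA-seq counts of the family. *MIR160d* had 2375 of the 2491 counts over the 8 libraries, or 95.3%, and *MIR160c* had the rest. *MIR160a* (zma-MIR160a), *MIR160b* (zma-MIR160b), *MIR160f* (zma-MIR160f) and *MIR160g* (zma-MIR160g) had 0 counts in every library. Over the 2 libraries of a group, 0 counts allow a level of up to 0.155 RPM in *dcl1-2* P3, 0.164 RPM in WT P3, 0.0600 RPM in *dcl1-2* CZ and 0.0527 RPM in WT CZ. Only uniquely mapped reads were counted, so that a read that fits other loci equally well is in none of these values. A count of 0 was common among precursors, as 76 of the 135 precursors of other families (56.3%) had none in any library. *MIR160f* is the only listed source of miR160f, which had 21 reads in the small RNA library of the whole apex, a tissue wider than P3 and the CZ.

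Of the 2 tissues measured, *MIR160d* (zma-MIR160d) was found mainly in P3, in both genotypes. It had 726 and 536 counts in *dcl1-2* P3 (79.9 and 51.9 RPM), against 650 and 443 counts in WT P3 (67.2 and 51.4 RPM). In the CZ it had 9 and 0 counts in *dcl1-2* (0.364 and 0 RPM), against 11 and 0 counts in WT (0.363 and 0 RPM). The P3 libraries were all far above the CZ libraries, and the genotypes overlapped in both tissues. P3 held 99.2% of its counts. Per kilobase of its annotated span, *MIR160d* averaged 73.1 RPM per kb in *dcl1-2* P3 and 65.7 in WT P3, rank 8 and rank 2 among the 141 precursors, and 0.202 in *dcl1-2* CZ and 0.201 in WT CZ, rank 29 in each. Of the 141 precursors, 50 had counts in *dcl1-2* P3, 51 in WT P3 and 46 in each CZ group. The values of the genotypes overlapped within each tissue. The ranks are of group means and have no spread.

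**Figure D2:**
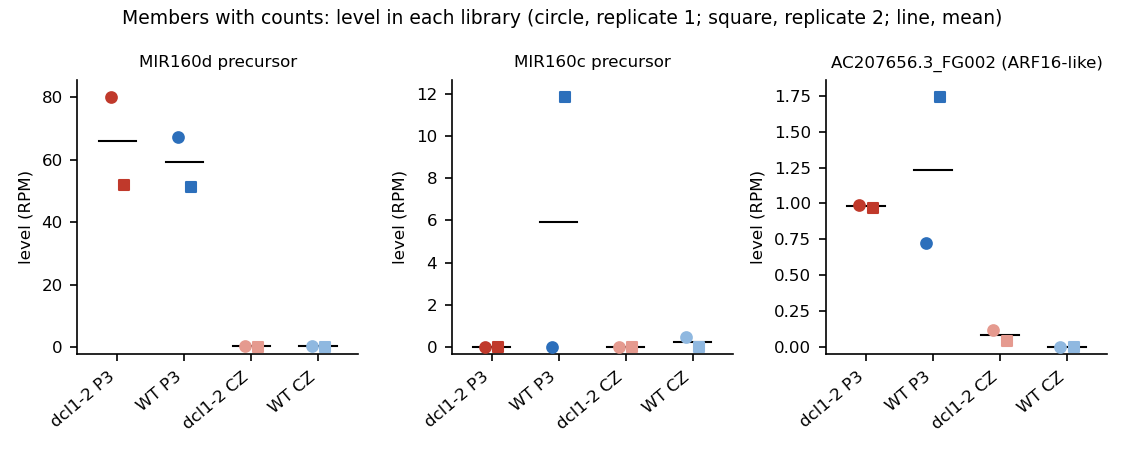
Level in RPM (y axis, linear, a scale for each panel) of the 3 members with counts in each of the 8 libraries, by group. Points are libraries and lines are group means; *MIR160d* stands at 51.4 to 79.9 RPM in P3 and below 0.37 RPM in the CZ, *MIR160c* has counts in 1 WT P3 and 1 WT CZ library, and *AC207656.3_FG002* stays below 1.8 RPM.

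Whether precursors and targets differed between *dcl1-2* and WT was tested within each tissue with edgeR's quasi-likelihood test on the counts, for features that averaged 1 RPM or more in either genotype. A difference was called at an adjusted p under 0.05 (Benjamini-Hochberg over all features tested). In P3 22498 features were tested and 4.50% were called, 3.34% higher and 1.16% lower in *dcl1-2*. Of the 7 members 3 passed the minimum in P3, and of these 1 was called. *MIR160c* and *AC207656.3_FG002* passed it through the WT P3 libraries alone.

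The level of *MIR160d* in P3 was not called different between the genotypes. It averaged 65.9 ± 19.8 RPM in *dcl1-2* P3 and 59.3 ± 11.2 RPM in WT P3 (SD, n = 2 each), or 0.21 ± 0.21 (SE) as a log2 fold change (edgeR adjusted p = 0.650). In this fit the 95% interval of the log2 fold change, −0.23 to 0.65, excludes a doubling, but this depended on the model. With all 8 libraries in 1 model the spread was larger (log2 fold change 0.23 ± 0.40 (SE)), and a doubling was not excluded. Of 31 precursors of other families tested in the same libraries, 17 were higher and 1 was lower in *dcl1-2* P3, against 3.34% higher and 1.16% lower over all features tested, with a median log2 fold change of 1.59, against −0.02 over all features tested. Among the 33 precursors tested, 22 had a higher log2 fold change than *MIR160d* and 10 a lower one. The difference of *MIR160d* from any single other precursor was not tested.

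**Figure D3:**
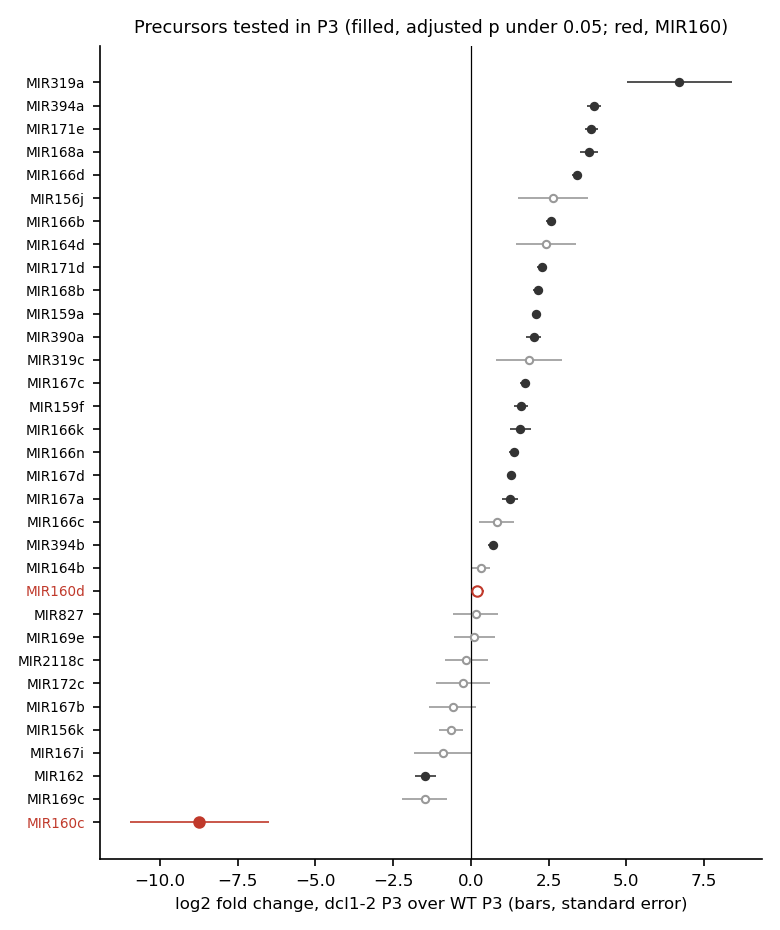
Log2 fold change (x axis, *dcl1-2* P3 over WT P3) with its standard error for the 33 precursors tested in P3, ordered by value; filled points passed the adjusted p of 0.05. *MIR160d*, in red, lies at 0.21 with 22 precursors above it, and *MIR160c*, also in red, lies at −8.73 with counts in 1 library.

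*MIR160c* (zma-MIR160c) was called lower in *dcl1-2* P3, and the call rests on 1 library. It had 0 and 0 counts in *dcl1-2* P3, against 0 and 102 counts in WT P3 (0 and 11.8 RPM). One WT library is therefore at 0 like both *dcl1-2* libraries, and the groups touch. The edgeR log2 fold change was −8.73 ± 2.24 (SE, adjusted p = 0.0393), a fitted value that depends on the handling of counts of 0. No lower bound of the fold between the genotypes can be given, since WT P3 replicate 1 is at 0 too. DESeq2 gave an adjusted p of 0.454, and without WT P3 replicate 2 the gene has no counts in P3 and there is no fold. *MIR160c* was the only feature of the whole table with at least 100 counts in WT P3 replicate 2 and 0 in the other 3 P3 libraries. No other P3 library held such a feature at this cut, which lies just below the 102 counts of *MIR160c*. At a minimum of 14 counts, the other P3 libraries each held 1 to 6 such features, against 19 in WT P3 replicate 2. That library also had the lowest summed YABBY level of the P3 libraries, 397 RPM against 544 RPM in WT P3 replicate 1, while 1 YABBY gene, *GRMZM2G074124*, was highest there (7.65 RPM against 0.931 RPM in WT P3 replicate 1); their part in the result was not tested. In WT P3 replicate 2, *MIR160d* made up 81.3% of the counts of the family, against 100% in the other 3 P3 libraries.

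In the CZ, 19897 features were tested and 0.292% were called. None of the 7 members reached the minimum there, so no member was tested. *MIR160c* had 0 and 0 counts in *dcl1-2* CZ, against 14 and 0 counts in WT CZ. The library with these counts, WT CZ replicate 1, held 107 features with at least 14 counts that were at 0 in the other 3 CZ libraries, against 5 to 13 features in each of the other CZ libraries. The counts of *MIR160d* in the CZ, 9 and 11, came from replicate 1 of each genotype. The summed YABBY level was 7.19 RPM in *dcl1-2* CZ replicate 1 and 19.98 RPM in WT CZ replicate 1, against 14.3 and 38.4 RPM in the replicate 2 libraries that lacked *MIR160d*. By genes, 7 of the 7 YABBY genes had counts in WT CZ replicate 1 and 4 in each of the other CZ libraries. *GRMZM2G074124*, *GRMZM2G106204*, *GRMZM2G116646* and *GRMZM2G141955* had 1.48 to 3.40 RPM in WT CZ replicate 1 and at most 0.113 RPM in any other CZ library. The rest, *GRMZM2G005353*, *GRMZM2G074543* and *GRMZM2G167824*, were highest in WT CZ replicate 2. They had 29.3, 3.57 and 5.45 RPM there, against 5.34, 2.64 and 1.95 RPM in WT CZ replicate 1. The part of leaf RNA in the counts of *MIR160c* and *MIR160d* was not tested. At these counts a difference between the genotypes in the CZ was not detectable. With no minimum beyond 1 count, edgeR gave *MIR160d* a log2 fold change of −0.02 ± 1.79 (SE, adjusted p = 0.997) in the CZ.

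*AC207656.3_FG002*, the ARF16-like member, was weakly expressed in P3 and close to absent from the CZ counts. It had 9 and 10 counts in *dcl1-2* P3 (0.991 and 0.968 RPM), against 7 and 15 counts in WT P3 (0.724 and 1.74 RPM). In the CZ it had 3 and 1 counts in *dcl1-2* and 0 and 0 counts in WT. The *dcl1-2* P3 values lie between the WT P3 values, so that the groups overlap. Its mean was 0.980 ± 0.0161 RPM in *dcl1-2* P3 and 1.23 ± 0.717 RPM in WT P3 (SD, n = 2 each). The log2 fold change in P3 was −0.24 ± 0.84 (SE, edgeR adjusted p = 0.921), with a 95% interval of −2.03 to 1.55. This interval holds a doubling and a halving, so the depth does not show whether the gene differed.

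Of the other listed targets of miR160, 1 was called in P3. Of the 7 targets, *AC207656.3_FG002* included, 6 were tested in P3, where 1 was higher, 0 were lower and 5 were not called, against 3.34% higher and 1.16% lower over all features tested; their median log2 fold change was 0.19, against −0.02 over all features. In the CZ 4 were tested and 0 were called by edgeR, against 0.292% over all features tested. Their median was 0.12, against −0.003 over all features. An unadjusted edgeR p under 0.05 was found for 3 of them. Of these, *GRMZM2G153233* and *GRMZM2G159399* were higher in *dcl1-2* CZ and *GRMZM2G081406* was lower. DESeq2 called 1 of the 4, and 345 of all features. The share of all features with an unadjusted p under 0.05 is not given here. Summed over the 7 targets, the level was 49.4 and 62.5 RPM in *dcl1-2* P3 against 47.2 and 40.3 RPM in WT P3, and 245 and 280 RPM in *dcl1-2* CZ against 191 and 242 RPM in WT CZ. The summed values of the genotypes did not overlap in either tissue, but the sums were not tested and the targets did not all move together. Of those tested in the CZ, *GRMZM2G153233* and *GRMZM2G159399* averaged higher in *dcl1-2*. *GRMZM2G081406* and *GRMZM5G808366* averaged lower there (12.3 and 82.7 RPM) than in WT CZ (18.9 and 92.5 RPM). In P3 *AC207656.3_FG002* and *GRMZM2G390641* averaged lower in *dcl1-2*.

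*GRMZM2G081406*, an ARF16-like gene, was higher in *dcl1-2* P3. It had 145 and 256 counts in *dcl1-2* P3 (16.0 and 24.8 RPM), against 93 and 89 counts in WT P3 (9.62 and 10.3 RPM). Both *dcl1-2* libraries were above both WT libraries. The log2 fold change was 1.102 ± 0.29 (SE, edgeR adjusted p = 0.0398), and DESeq2 gave an adjusted p of 0.0376. The 4 epidermal OCL genes of the HD-ZIP IV class summed to 491 and 506 RPM in *dcl1-2* P3 against 371 and 372 RPM in WT P3, also without overlap; their part in the result was not tested. The call was lost without *dcl1-2* P3 replicate 2 (edgeR log2 fold change 0.74, adjusted p = 0.502), and without WT P3 replicate 1 or 2 (edgeR adjusted p = 0.0626 and 0.0748). It was also lost with library totals in place of TMM factors (edgeR adjusted p = 0.0575), with all 8 libraries in 1 model (edgeR adjusted p = 0.0713) and with limma on the deposited RPM (adjusted p = 0.0890). In the CZ its values stood the other way, at 13.8 and 10.9 RPM in *dcl1-2* CZ against 20.9 and 16.9 RPM in WT CZ. That difference was not called (edgeR log2 fold change −0.65 ± 0.24 (SE), adjusted p = 0.364).

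*GRMZM2G153233*, the ARF10-like gene with the larger counts, had 1499 and 2140 counts in *dcl1-2* CZ (60.6 and 84.8 RPM), against 917 and 1129 counts in WT CZ (30.2 and 42.4 RPM). Both *dcl1-2* libraries were above both WT libraries. The edgeR log2 fold change was 0.97 ± 0.21 (SE), and its adjusted p of 0.104 missed the threshold. The call depended on the method: DESeq2 gave an adjusted p of 0.00310, edgeR with no minimum beyond 1 count gave 1.13e-05, and over all settings the adjusted p ranged from 1.13e-05 to 0.382. It also passed in edgeR without *dcl1-2* CZ replicate 1 (adjusted p = 0.0391) and without WT CZ replicate 2 (0.000342). In P3 the gene had 11.9 and 15.6 RPM in *dcl1-2* against 15.0 and 9.62 RPM in WT, which overlap (edgeR log2 fold change 0.22 ± 0.31 (SE), adjusted p = 0.774).

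The remaining targets were called in neither tissue. *GRMZM2G159399*, which has the same printed site as *GRMZM2G153233*, had 84.5 and 104 RPM in *dcl1-2* CZ against 63.4 and 73.1 RPM in WT CZ (edgeR log2 fold change 0.43 ± 0.16 (SE), adjusted p = 0.345). In P3 it had 19.3 and 16.7 RPM in *dcl1-2* against 19.4 and 13.7 RPM in WT (edgeR log2 fold change 0.18 ± 0.27, adjusted p = 0.788). Its genotypes overlapped in P3 and did not overlap in the CZ. *GRMZM5G808366*, the ARF17-like gene, had 85.6 and 79.8 RPM in *dcl1-2* CZ against 75.9 and 109 RPM in WT CZ, and 0.440 and 3.87 RPM in *dcl1-2* P3 against 1.14 and 2.90 RPM in WT P3; the genotypes overlapped in both tissues. *GRMZM2G390641*, the third gene with that site, had 7 and 4 counts in *dcl1-2* P3 against 12 and 18 counts in WT P3 (edgeR log2 fold change −1.44 ± 0.87 (SE), adjusted p = 0.419). *GRMZM2G005284* had 1 and 2 counts in *dcl1-2* P3 and 0 in every other library. The 3 genes with identical sites thus had log2 fold changes of −1.44 to 0.22 in P3, none of them called.

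**Figure D4:**
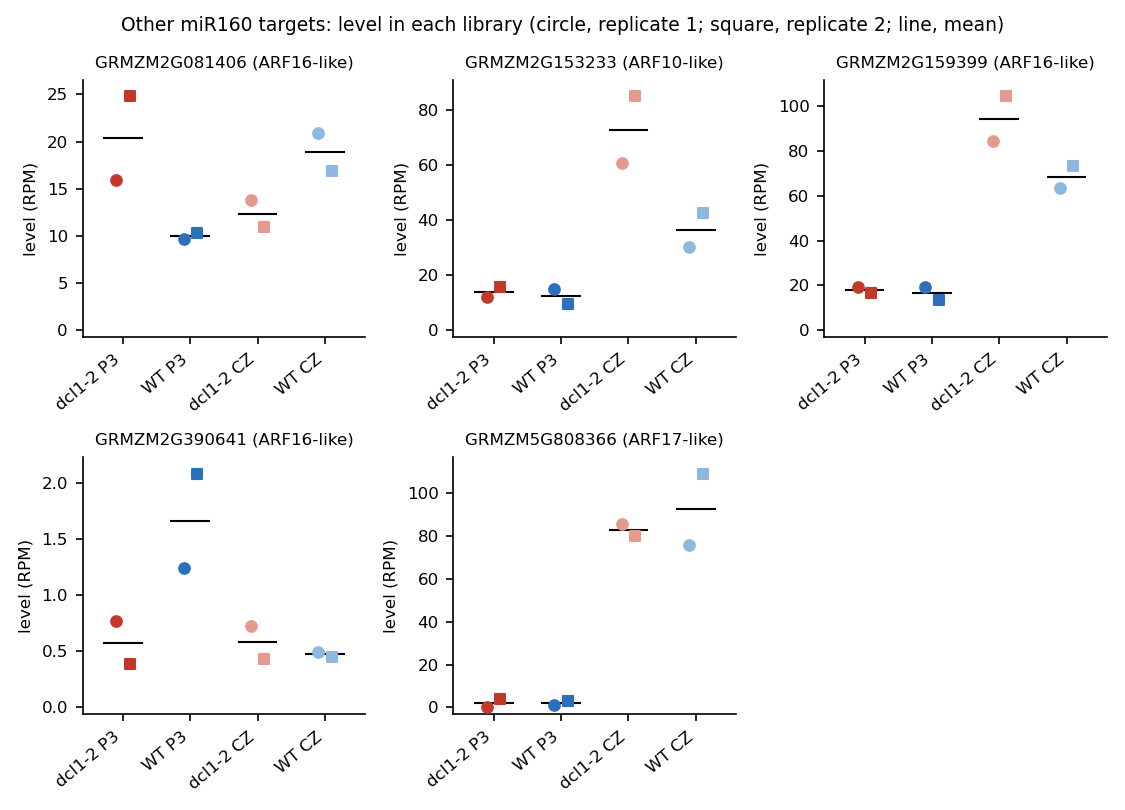
Level in RPM (y axis, linear, a scale for each panel) of 5 other miR160 targets in each of the 8 libraries, by group; points are libraries and lines are group means. *GRMZM2G081406* stands at 16.0 and 24.8 RPM in *dcl1-2* P3, above 9.62 and 10.3 RPM in WT P3, while *GRMZM5G808366* stands at 75.9 to 109 RPM in the CZ and below 4 RPM in P3.

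Whether the effect of *dcl1-2* differed between P3 and the CZ was tested as a contrast over all 8 libraries, in which 2.36% of 23512 features were called, 2.03% with a larger log2 fold change in P3. Among the members and targets 1 was called, *GRMZM2G081406*. Its log2 fold change was larger in P3 than in the CZ by 1.76 ± 0.40 (SE, edgeR adjusted p = 0.0373). Leaving out 1 library at a time kept the direction in all 8 fits and the call in 2 of them, with differences of 1.40 to 2.03. The call was also lost with library totals (1.65, edgeR adjusted p = 0.0594). For *MIR160d* the difference was 0.33 ± 1.20 (SE, edgeR adjusted p = 0.940), with a 95% interval of −2.26 to 2.92, since its CZ counts are few. For *AC207656.3_FG002* it was −3.91 ± 1.98 (SE, edgeR adjusted p = 0.362). For *MIR160c*, with 0 counts in both *dcl1-2* groups, the difference could not be estimated. *GRMZM2G153233* had a difference of −0.74 ± 0.39 (SE, edgeR adjusted p = 0.373).

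**Figure D5:**
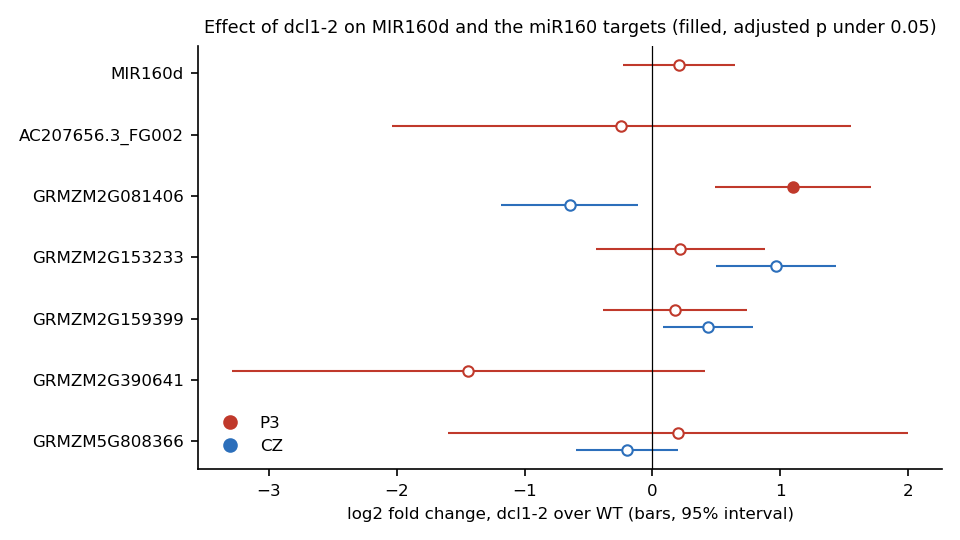
Log2 fold change (x axis, *dcl1-2* over WT) with its 95% interval from edgeR, in P3 (red, upper) and the CZ (blue, lower), for *MIR160d* and 6 miR160 targets; filled points passed the adjusted p of 0.05, and a missing blue point means that the gene was below the minimum in the CZ. Only *GRMZM2G081406* in P3, at 1.102, is filled, and its CZ value is −0.65.

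Genes around miR160 in the pathway gave a mixed picture. Of 15 miRNA processing genes 11 were tested in P3, and 1 was higher in *dcl1-2* (*DCL1* itself) and 0 were lower; in the CZ edgeR and DESeq2 called 0 of 11, and 2 had an unadjusted edgeR p under 0.05. Of the ARF targets of miR167, a separate miRNA whose targets are ARF genes of the activator type, edgeR and DESeq2 called 0 of 7 in P3 and 0 of 6 in the CZ, and 0 had an unadjusted edgeR p under 0.05 in either tissue. Of the *tas3* transcripts, the source of small RNAs against a further group of ARF genes, 3 of 7 tested were higher in *dcl1-2* P3. Over all features tested, 3.34% were called higher in P3 and 0.292% were called in the CZ. For *tas3* in the CZ edgeR called 0 of 6, DESeq2 called 1, and 3 had an unadjusted edgeR p under 0.05. Over all features DESeq2 called 345 in the CZ, and the share with an unadjusted p under 0.05 is not given here.

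In wild type, the precursor and most of its targets stood on opposite sides of the comparison of WT P3 with WT CZ. In this comparison 62.3% of 23512 features were called, 31.3% higher and 31% lower in P3, so that a call is the common outcome. *MIR160d* was higher in WT P3 than in WT CZ by 8.02 ± 0.63 on the log2 scale (SE, edgeR adjusted p = 2.96e-07), and its pooled level was 309-fold higher. In *dcl1-2* the pooled ratio of P3 to CZ was 361. Both ratios rest on the counts of 1 CZ library per genotype, and the log2 fold change in WT was 12.77 without WT CZ replicate 1 and 7.14 without WT CZ replicate 2, called in both fits. Among the 35 precursors tested, 2 had a higher log2 fold change. *AC207656.3_FG002* was higher in WT P3 as well (log2 fold change 7.30 ± 1.59 (SE), edgeR adjusted p = 0.00173), at least 22.8-fold by pooled level against 3 counts in WT CZ. It reached the minimum for testing only through WT P3, where it is highest, so that its direction was favoured by the filter. The same holds for *MIR160c*, which passed through 1 WT P3 library. *MIR160d* passed only through the P3 groups. *MIR160c* was called higher by edgeR (log2 fold change 4.36 ± 1.77 (SE), adjusted p = 0.0498) and not by DESeq2 (adjusted p = 0.398), with counts in 1 of 2 libraries of each group. Its edgeR call was also lost without WT CZ replicate 2 (adjusted p = 0.138) and without *dcl1-2* P3 replicate 1 or 2 (0.0557 and 0.0565).

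Of the 6 targets tested between the tissues, 4 were lower in WT P3, 1 was higher and 1 was not called, with a median log2 fold change of −1.45, against 0.02 over all features. *GRMZM5G808366* averaged 2.02 ± 1.24 RPM in WT P3 and 92.5 ± 23.5 RPM in WT CZ (SD, n = 2 each), a log2 fold change of −5.77 ± 0.49 (SE, edgeR adjusted p = 5.49e-07). *GRMZM2G159399* averaged 16.6 ± 4.08 RPM in WT P3 and 68.3 ± 6.90 RPM in WT CZ, a log2 fold change of −2.25 ± 0.21 (edgeR adjusted p = 1.49e-06). *GRMZM2G153233* had a log2 fold change of −1.77 ± 0.28 (edgeR adjusted p = 0.000124), and *GRMZM2G081406* one of −1.14 ± 0.28 (edgeR adjusted p = 0.00357). *GRMZM2G390641* had 1.24 and 2.09 RPM in WT P3 against 0.495 and 0.451 RPM in WT CZ, which was not called (log2 fold change 1.57 ± 0.86 (SE), edgeR adjusted p = 0.125). Tissue cannot be told apart from read layout (paired-end in P3, single-end in the CZ) in this comparison, and in such bulk samples fewer cells of a type and less RNA per cell cannot be told apart.

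Many genes had a pattern like that of *MIR160d*. By Pearson's r of log2(RPM + 1) over the 8 libraries, 3766 of 21615 genes compared had an r of at least 0.95. The points share their libraries and fall into 2 tissues, so that r mainly describes the P3 to CZ step. The 5 genes with the highest r were *GRMZM5G861230* (0.9991), *GRMZM2G043350* (0.9991), *GRMZM2G066743* (0.9987), *GRMZM5G883448* (0.998) and *GRMZM2G350931* (0.998). Of these, *GRMZM5G861230* had 11.8 to 16.1 RPM in the P3 libraries and 0.113 to 0.364 RPM in the CZ libraries, and *GRMZM5G883448* had 55.6 to 71.1 RPM in P3 and 1.01 to 1.74 RPM in the CZ. *GRMZM2G043350* had 277 to 303 RPM in P3 and 97.2 to 108 RPM in the CZ, a smaller step from a higher level.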

How the data were processed

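The deposited RNA-seq counts are unnormalized numbers of uniquely mapped reads for each gene and precursor, which the authors obtained with Trimmomatic, TopHat (genome B73 RefGen_v3) and HTSeq; RPM was computed here as counts times 1e+06 over the total of the table. In the same table the authors deposited RPM values, a signal scaled to mapped reads that sums to more in P3 than in the CZ, used only in an alternative. For small RNA, the authors trimmed reads with cutadapt 1.13, kept 18 to 26 nt, aligned with Bowtie 1.1.2 and deposited counts and RPM of mature miRNAs (161 entries, 76 distinct sequences, each counted once here). A single blank count, not of a member, was read as 0.

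Groups follow the labels. Counts were tested with edgeR 4.0.16 (limma 3.58.1, R 4.3.3): TMM, a mean of at least 1 RPM in a group, the quasi-likelihood test and Benjamini-Hochberg adjustment. The comparisons within a tissue used its 4 libraries, and the others all 8. The SE was derived from the F statistic of each test. Alternatives were RLE factors, library totals, DESeq2 1.42.0, no filter, the replicate number as a block, all 8 libraries in 1 model, limma on log2 of deposited RPM plus 1, each library left out, and, added after seeing the data, a fold cutoff (1 on the log2 scale). Replicates differed by more than sampling noise (chi-square per gene 6.11 to 25.2). The tests were tested on simulated data. Values were computed with Python 3.11.15, numpy 2.4.6, pandas 2.3.3 and scipy 1.17.1, and plotted with matplotlib 3.10.9.

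The text names all members, the other targets that the study lists for miR160, *DCL1* and the 5 genes most like *MIR160d*. The members and lists were chosen with earlier results of these data known. ARF names and target sites are those of the study's supplement. Whether replicates came from separate growths is not stated in the labels, so p-values measure the spread between these libraries. The labels and the study name different RNA amplification kits.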

Additional observations from a re-analysis of the deposited data

Results flagged for a closer look

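The effect of *dcl1-2* on *GRMZM2G081406*, an ARF16-like target of miR160, differed between the tissues: the log2 fold change in P3 exceeded that in the CZ by 1.76 (edgeR adjusted p = 0.0373). The call was lost in 6 of the 8 fits with 1 library left out (adjusted p up to 0.198) and with library totals (1.65, edgeR adjusted p = 0.0594). The gene had 16.0 and 24.8 RPM in *dcl1-2* P3 against 9.62 and 10.3 RPM in WT P3, and 13.8 and 10.9 RPM in *dcl1-2* CZ against 20.9 and 16.9 RPM in WT CZ, so that both *dcl1-2* libraries stood above both WT libraries in P3 and below them in the CZ. The summed YABBY level, 555 and 569 RPM in *dcl1-2* P3 against 544 and 397 RPM in WT P3, was 7.19 and 14.3 RPM in *dcl1-2* CZ against 19.98 and 38.4 RPM in WT CZ. The summed level of the 4 epidermal OCL genes was 491 and 506 RPM in *dcl1-2* P3 against 371 and 372 RPM in WT P3, and 226 and 196 RPM in *dcl1-2* CZ against 224 and 219 RPM in WT CZ. The part of either marker list in the result was not tested.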

How the results depend on the processing

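In every setting that gave a value, *MIR160d* and *AC207656.3_FG002* were called higher in WT P3 than in WT CZ. Their log2 fold changes were 7.14 to 12.77 and 7.16 to 7.85. Where the minimum was applied, *AC207656.3_FG002* passed it only through WT P3 and *MIR160d* only through P3. The filter thus favoured this direction. The difference of *MIR160d* between *dcl1-2* and WT P3 was called in no setting (0.14 to 0.23, and −0.13 to 0.48 with 1 library left out). *MIR160c* in P3 lost its call with DESeq2 (−8.18), all 8 libraries in 1 model (−9.51) and limma on RPM (−2.04); with 1 library left out it was −9.72 to −8.70. Without WT P3 replicate 2, *MIR160c* and *AC207656.3_FG002* were below the minimum and gave no value. Between WT P3 and WT CZ *MIR160c* lost its call with DESeq2 (4.52) and the replicate block (3.11), with 3.41 to 9.39 over left-out libraries. The number of miR160 targets called in P3 was 0 with library totals, all 8 libraries or limma (0 to 1 over left-out libraries), and in the CZ 1 with DESeq2, no filter or the block (0 to 1). *GRMZM5G808366* in P3 turned sign with the block (−0.18) and limma (−0.16). With libraries left out, uncalled values that turned sign ranged from −0.090 to 0.62 (*GRMZM2G153233*, P3), −0.078 to 0.50 (*GRMZM2G159399*, P3), −2.09 to 1.03 and −0.44 to 0.12 (*GRMZM5G808366*, P3 and CZ), and, for the difference between tissues, −4.43 to 5.06 (*MIR160d*), −0.51 to 0.086 (*GRMZM2G159399*) and −1.87 to 1.24 (*GRMZM5G808366*). The share of miR160 was 0.0607% with repeated entries summed. The causes were not tested.

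All features called numbered 1012 in P3, against 622 with the fold cutoff, 1686 with no filter, 1610 with the block and 432 with 8 libraries. In the CZ 58 were called, against 345 with DESeq2, 697 with no filter, 308 with the block and 243 with 8 libraries. For the difference 555 were called, against 1019, 1589 and 948 with DESeq2, no filter and the block. Left-out libraries gave 533 to 1847 in P3, 42 to 674 in the CZ and 79 to 911 for the difference. Library totals moved the median of all features to 0.24 between WT P3 and WT CZ (0.02 with TMM) and to −0.10 for the difference (0.01), where 76.0% of calls were higher (86.1%). Over all genes compared, same-numbered libraries deviated together little (correlation 0.011 in P3 and 0.0698 in the CZ). Such a value over many genes cannot show whether same-numbered libraries share a batch. Low counts limit what can be said of *MIR160d* in the CZ, the precursors at 0 and *AC207656.3_FG002*.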
